A study of Macaca mulatta with 9 samples.

Results

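This account covers 70 named genes whose prostate signal was higher than in vehicle offspring at both doses of the dioxin TCDD, out of 1076 genes with a symbol in the authors' deposited list of changed probes. Members were chosen by their measured values. For each gene the brightest probe was taken, the log2 ratio of its signal to the 75th percentile signal of that array was taken (called its level below), and the mean level of the 30 ng/kg group and of the 300 ng/kg group both had to lie at least 0.5 above the vehicle mean. Of 77 genes that met these limits, 7 were on a list of 16 genes that were set aside, which left the 70. Because both differences from vehicle chose the genes, those differences are given here as a description and carry no test.

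The animals were rhesus monkeys (Macaca mulatta), and each array held total RNA from the homogenized frozen prostate of 1 offspring. Dams were injected under the skin on gestation day 20 with vehicle, 30 ng/kg or 300 ng/kg TCDD, followed every 30 days by 5% of that amount, up to day 90 after delivery. The offspring were therefore exposed in the womb and through milk, were not dosed themselves, and were examined 7 years after exposure. Each of the 3 groups held 3 offspring. The labels give no strain, litter or exact age, and nothing in them ties offspring of different groups to each other.

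TCDD stays in the body for years and acts through the aryl hydrocarbon receptor, a transcription factor that ligands switch on. The bound receptor moves into the nucleus, pairs with its partner ARNT and switches on genes with dioxin response elements, of which CYP1A1 is the best known. In the developing prostate the receptor is known chiefly for its effects on the budding and growth of the gland, where signals pass between the epithelium and the surrounding mesenchyme.

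The arrays differed in brightness, and brightness differed between the groups. The 75th percentile of the processed signal ran from 514 to 1193 intensity units in vehicle arrays, from 343 to 1356 at the lower dose and from 1258 to 2374 at the higher. Spots well above background made up 63.9% to 79.2% of an array in the vehicle and 30 ng/kg groups and 79.3% to 83.9% in the 300 ng/kg group. Slide 1 held vehicle replicates 1 and 2. Slide 2 held vehicle replicate 3 with 30 ng/kg replicates 1 and 2, and slide 3 held 30 ng/kg replicate 3 with all 3 arrays of 300 ng/kg, so vehicle and 300 ng/kg arrays never shared a slide. Replicates are separate offspring, and the number of arrays limits the precision of every value.

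The tissue label was checked against marker lists. The prostate secretory genes KLK3 (prostate-specific antigen) and MSMB (microseminoprotein) were well above background on all 9 arrays, with KLK3 at levels of 8.05 to 10.84 and MSMB at 4.88 to 6.90. Of 16 marker lists, 11 had at least 1 gene with a symbol. The others (seminal vesicle, urothelium, skeletal muscle, T and NK lymphocytes, erythrocytes) had none and could not be read. All genes with a symbol come from the authors' list of probes that changed on these arrays. Shifts between groups in the sums below were thus fixed in part, and the sums do not measure cell composition. A single marker was a member: S100A4, the single gene with a symbol of 15 fibroblast markers. Of the genes set aside after meeting the limits, 1 each was on the secretory, stratified epithelium and adipocyte lists. The summed linear signal of the 3 smooth muscle genes with a symbol, of 20 listed, ran from 224 to 341 times the 75th percentile in vehicle, from 244 to 451 at 30 ng/kg and from 117 to 199 at 300 ng/kg. The 3 secretory genes with a symbol, of 29 listed, summed to 626 to 950 in vehicle, 613 to 1960 at 30 ng/kg and 406 to 484 at 300 ng/kg. The muscle sum rests mostly on TPM2 and the secretory sum mostly on KLK3. At 300 ng/kg KLK3 and MSMB differed from vehicle by -1.18 and -0.73 on the log2 scale. The third secretory gene, set aside after meeting the limits, went the other way, 8.87 above vehicle there, and adds to the sum. The 2 endothelial genes with a symbol, of 21 listed, summed to 0.931 to 1.24, 2.22 to 3.05 and 0.789 to 1.38, and the sole adipocyte gene with a symbol of 14 listed, LPL, lay at 0.902 to 1.37, 2.63 to 4.19 and 2.19 to 3.70, in the same order of groups. The 4 stratified epithelium genes with a symbol, of 17 listed, summed to 2.79 to 4.93, 6.54 to 8.41 and 3.66 to 9.75, and KRT13, a defining keratin of that list, was not well above background on any 30 ng/kg array. The sum at 30 ng/kg rests mostly on CNFN, which differed from vehicle by -0.27 at 300 ng/kg, where the other genes of that list were higher. LIPG of the endothelial list was not well above background on any vehicle array, and that list's sum rests mostly on PECAM1. The part of these shifts in the members' differences was not tested, and in whole tissue a change in the number of cells that express a gene cannot be told apart from a change in RNA per cell.

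Across the 70 genes the difference from vehicle had a median of 0.80 on the log2 scale at 30 ng/kg (range 0.50 to 2.79) and 1.06 at 300 ng/kg (range 0.54 to 3.35). Over all 15160 tested probes the same medians were 0.02 and -0.01. Both differences reached 0.5 for 3.91% of those probes, a share that states how common the selecting pattern was. A measured difference of 1 or more on the log2 scale (2-fold) was reached by 18 genes at 30 ng/kg, by 40 at 300 ng/kg and by 9 at both doses: CRYAA, PDE1A, NDST4, CNR1, ALCAM, PYGL, PRSS16, ST8SIA1 and NR4A2. The standard error of a difference, the same for all 3 pairs of groups, ran from 0.12 to 0.99 with a median of 0.30 (limma, 3 arrays per group). Just inside the limits lay RPS6 (0.501 and 0.678 above vehicle at 30 and 300 ng/kg), RWDD2 (0.524 and 1.412) and SLC9A9 (0.528 and 1.025). Just outside lay FNDC6 (1.04 and 0.50, the latter just under the limit before rounding), CDW92 (0.494 and 0.973) and TIAL1 (1.268 and 0.489).

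The median level over the 70 genes was -3.25, -3.38 and -3.27 on vehicle arrays 1, 2 and 3, then -2.41, -2.15 and -2.34 at 30 ng/kg, and -1.94, -2.36 and -1.60 at 300 ng/kg. All 6 exposed arrays lay above all 3 vehicle arrays for 52 of the 70 genes, against 1.51% of all tested probes, a contrast that the selection itself used. The 3 arrays of 30 ng/kg all lay above vehicle for 55 genes (4.93% of all tested probes) and the 3 arrays of 300 ng/kg for 66 (11.5%), counts that the selection likewise fixed in part. Of the remaining 18 genes, 14 had 5 of the 6 exposed arrays above the highest vehicle array, 3 had 4 (OSTalpha, GPR74 and HRH1) and 1 had 3 (TTBK1). The heat map of levels relative to the vehicle mean shows this as a change of shading at the boundary between vehicle and 30 ng/kg.

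**Figure D1:**
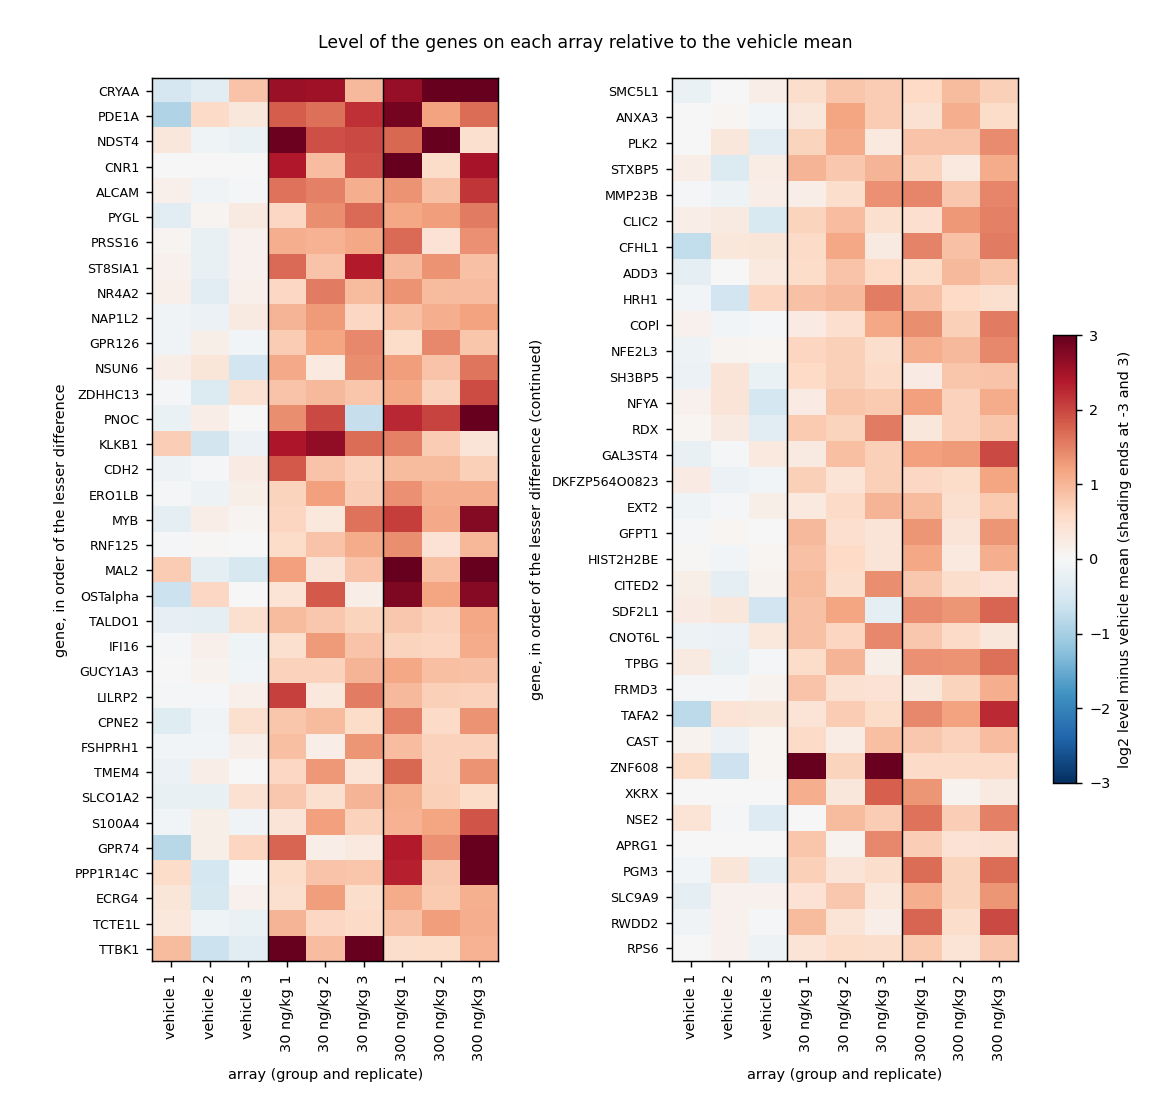
Level of 69 of the 70 genes (rows, in order of the lesser of both differences) on each of the 9 arrays (columns, 3 replicates each of vehicle, 30 and 300 ng/kg), as log2 level minus the vehicle mean of that gene. Red is higher and blue is lower than the vehicle mean, and the shading ends at -3 and 3. For 52 of the 70 genes all 6 exposed arrays lie above all 3 vehicle arrays.

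The median SD over the 70 genes was 0.26 among vehicle offspring, 0.41 in the low dose group and 0.36 in the high dose group, against 0.34, 0.38 and 0.31 over all tested probes. Genes were chosen for levels that were low in vehicle. Of them 9, 7 and 3 were at the floor for dim signals on vehicle arrays 1, 2 and 3 and 0 on each exposed array. The floor can narrow the vehicle SD of those genes. Over the 60 genes at the floor on no array the medians were 0.27, 0.34 and 0.35. Over the 46 genes well above background on all 9 arrays they were 0.26, 0.37 and 0.34. Both subsets were chosen by the same rule, and the parts of the floor and of the selection in the vehicle SD were not tested. Replicate 2 was the lowest of the 3 arrays of 300 ng/kg for 43 of the 70 genes and the highest for 7, whereas over all tested probes it was the lowest for 30.3% and the highest for 39.5%. Replicate 3 was the highest for 35 of the genes, against 28.1% of all probes. No array of vehicle or of 30 ng/kg was the lowest for more than 29 of the genes. The 2 spots of a probe on an array differed by a median of 0.148 on the log2 scale for the 70 genes and by 0.137 for all probes, where both spots were well above background.

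The comparison of 300 with 30 ng/kg asks whether the larger dose went with a larger difference. It involves no vehicle array, but the arrays are those on which the genes were chosen, and the authors' list had already been limited by its makers to probes with an analysis of variance p up to 0.05 across the doses and a fold of 1.5 or more at 1 dose or both. Of the 70 genes, 52 were higher at 300 than at 30 ng/kg and 18 were lower. Over all tested probes 48.3% were higher. Selection on both dose differences and the authors' filter can shape this split and the counts below. The probes beside them were not so selected, so these contrasts are a description and no test of a dose effect. The median of 300 minus 30 ng/kg was 0.23 for the 69 tested members and -0.03 for all tested probes. By limma with Benjamini-Hochberg adjustment over all tested probes, no member passed the threshold of 0.05 between the doses, and 0% of all tested probes did. The smallest adjusted p was 0.166 among the members and 0.104 among all probes. At an unadjusted limma p under 0.05, 13 members were higher and 3 were lower at 300 ng/kg, beside 8.12% of all probes higher and 12.5% lower. The members higher at 300 numbered 21 instead of 52 with normexp background correction, under which 29.2% of all tested probes were higher and the median of all probes moved to -0.52.

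The members fell into 3 shapes by the size of that difference. With the scanner's own background subtraction, for 45 genes the 2 exposed means lay within 0.5 of each other on the log2 scale, and for 28 of these within 0.3, among them PDE1A, ALCAM, PYGL, PRSS16, NR4A2, NAP1L2 and CDH2. For 19 genes the 300 ng/kg mean was at least 0.5 above the 30 ng/kg mean, with the widest gap in MAL2 at 2.42. For 6 genes (ST8SIA1, KLKB1, LILRP2, TTBK1, ZNF608 and XKRX) it was at least 0.5 below, with the widest gap in TTBK1 at -2.08. Over all tested probes 16% lay at least 0.5 above and 25.9% at least 0.5 below. The scatter of both differences places these genes above, near and below the line of equal differences, and both axes share the same 3 vehicle arrays.

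**Figure D2:**
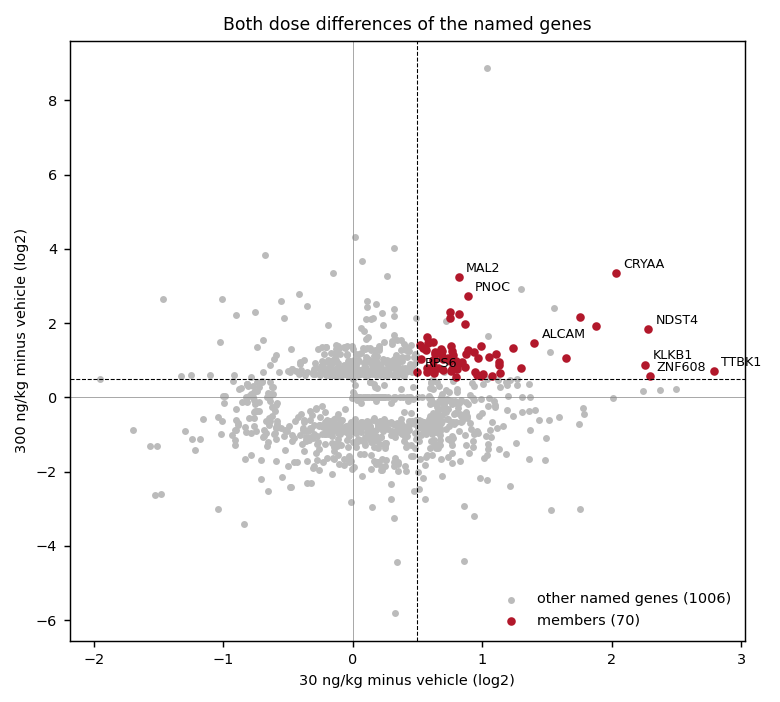
Difference from vehicle at 30 ng/kg (horizontal, log2) and at 300 ng/kg (vertical, log2) for the 1076 named genes, with the 70 members in red and the limits of 0.5 as dashed lines. Members start at 0.50 and 0.54 and reach 2.79 at 30 ng/kg (TTBK1) and 3.35 at 300 ng/kg (CRYAA), and the grey points beyond both limits are the 7 genes set aside.

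The genes are described below by what their products do. Levels are given for replicates 1, 2 and 3 of each group in that order, differences are between group means on the log2 scale with the standard error from limma (the same at both doses and given once per gene), and a value of -6.10 is the floor under which dim signals have no order. Genes outside the naming rule given with the processing are named so that all 70 are accounted for, after their values were seen. A level is not compared between genes, since each probe has its own brightness. The values depend on the background correction: with normexp in place of the scanner's own subtraction the difference at 300 ng/kg was smaller for 68 of the 70 genes, and for 34 by over 1.5 times on the linear scale, while at 30 ng/kg it moved that far for 5. With slide as a fixed block vehicle replicate 3 is the sole vehicle array compared. Under that block the difference moved by over 1.5 times for 25 genes at 300 ng/kg and for 3 at 30 ng/kg. Where either turned the direction of a difference from vehicle, the value stands beside the gene.

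Receptors coupled to G proteins and their ligands were mostly dim. CNR1, the cannabinoid receptor of nerve cells, was at the floor of -6.10 on all 3 vehicle arrays, and stood at -3.69, -5.18 and -4.16 at 30 ng/kg and at -2.67, -5.54 and -3.63 at 300 ng/kg. No vehicle array was well above background, so its fold is given as a lower bound under the scanner's own subtraction. It was at least 2.65-fold higher at 30 ng/kg and at least 3.49-fold higher at 300 ng/kg. Such bounds set the exposed mean against, for each vehicle array, the higher of its dimmest signal well above background and the probe's own level. The exposed mean is taken as measured, so the ratio is no bound where an exposed array was not well above background. The bounds apply to that subtraction alone and need not hold with normexp, where differences can be smaller or turn. Replicate 2 was the lowest exposed array at both doses, and with normexp the differences of CNR1 were 1.12 and 0.27. GPR74, a receptor for neuropeptide FF, lay at -6.10, -5.09 and -4.63 in vehicle, -3.52, -5.07 and -4.97 at 30 ng/kg and -2.90, -3.90 and -2.10 at 300 ng/kg. Its 30 ng/kg arrays overlapped vehicle, and its 300 ng/kg mean was 1.55 ± 0.66 (SE) above the 30 ng/kg mean, with a limma adjusted p of 0.201. With normexp that dose difference turned to -0.31. HRH1, the histamine receptor that couples to calcium release, lay at -5.22, -5.72 and -4.49 in vehicle, -4.25, -4.16 and -3.61 at 30 ng/kg and -4.25, -4.55 and -4.65 at 300 ng/kg. Vehicle replicate 3 was above 2 of the 3 arrays of 300 ng/kg, and the 300 ng/kg difference of HRH1 from vehicle was -0.28 with normexp and -0.59 with slide as a fixed block. GPR126, an adhesion receptor known for its part in myelination, was 1.13 ± 0.26 above vehicle at the low dose and 0.95 at the high dose, with no overlap of exposed and vehicle arrays, but -0.15 at the high dose with normexp.

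PNOC encodes the precursor of nociceptin, an opioid-like peptide. Its levels were -1.43, -1.03 and -1.21 in vehicle, 0.18, 0.75 and -1.92 at 30 ng/kg, and 1.05, 0.80 and 2.66 at 300 ng/kg. The 30 ng/kg group was split, with replicate 3 below every vehicle array, while all 3 arrays of 300 ng/kg lay above every other array. The 300 ng/kg mean was 2.72 ± 0.79 above vehicle (6.60-fold) and 1.83 above 30 ng/kg, with a limma adjusted p of 0.200. With slide as a fixed block PNOC was 5.10 above vehicle and 3.43 above 30 ng/kg. OPRL1, the receptor of nociceptin, was no member: its difference was 0.63 at 30 ng/kg and -1.24 at 300 ng/kg, with 2 arrays of each group well above background. TAFA2, a secreted chemokine-like protein of the nervous system, lay at -5.38, -4.17 and -4.23 in vehicle, -4.19, -3.84 and -4.03 at 30 ng/kg and -3.16, -3.38 and -2.35 at 300 ng/kg, so that all arrays of 300 ng/kg were higher than all others. Its 300 minus 30 ng/kg difference of 1.06 ± 0.40 had a limma adjusted p of 0.190 and turned to -0.41 with normexp background correction.

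Cyclic nucleotide enzymes were 2 of the members whose exposed means lay close together. PDE1A, a phosphodiesterase switched on by calcium and calmodulin that breaks down cyclic AMP and cyclic GMP, lay at -5.78, -4.29 and -4.54 in vehicle, -3.06, -3.22 and -2.68 at 30 ng/kg and -2.00, -3.67 and -3.19 at 300 ng/kg. All 6 exposed arrays were above vehicle, by 1.88 ± 0.54 at 30 ng/kg (3.69-fold) and 1.92 at 300 ng/kg (3.78-fold). With normexp the differences of PDE1A were 1.21 and 0.53, and with slide as a fixed block 1.40 and 1.13. GUCY1A3, a subunit of the nitric oxide receptor that makes cyclic GMP, was tighter: -3.76, -3.63 and -3.82 in vehicle, -3.04, -3.04 and -2.73 at 30 ng/kg and -2.59, -2.83 and -2.87 at 300 ng/kg. Its differences of 0.80 and 0.98 came with the lowest standard error among the 70 genes, 0.12. The kinases and phosphatase regulators among the members were TTBK1, PLK2, PPP1R14C and SH3BP5. PLK2, a polo-like kinase induced by serum and by stress, was 0.70 ± 0.28 above vehicle at the low dose and 1.04 at the high dose, with vehicle replicate 2 at 0.31 just above 30 ng/kg replicate 3 at 0.28. PPP1R14C, an inhibitor of protein phosphatase 1, was 0.75 ± 0.62 above vehicle at the low dose and 2.15 at the high dose, where arrays spread from -3.96 in replicate 2 to -1.45 in replicate 3.

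TTBK1 (tau tubulin kinase) and ZNF608 (a zinc finger protein) were high on the same arrays. TTBK1 lay at 1.38, -0.23 and 0.10 in vehicle, 4.19, 1.34 and 4.09 at 30 ng/kg and 0.95, 0.97 and 1.46 at 300 ng/kg. ZNF608 lay at -0.70, -1.88 and -1.19 in vehicle, 2.00, -0.60 and 1.71 at 30 ng/kg and -0.69, -0.69 and -0.68 at 300 ng/kg. Both were high on replicates 1 and 3 of 30 ng/kg, whereas replicate 2 lay near the 300 ng/kg arrays. Those 2 arrays had the lowest 75th percentiles of the 9, 343 and 363 intensity units, against 1356 for replicate 2, and the part of brightness in these values was not tested. The 300 minus 30 ng/kg difference was -2.08 ± 0.83 for TTBK1 and -1.72 ± 0.70 for ZNF608, with limma adjusted p of 0.188 and 0.190. Without 30 ng/kg replicate 2 both differences, -3.01 and -2.54, passed the adjusted threshold in limma. The array left out was the one near the 300 ng/kg arrays. In that fit 774 probes passed, 2 of them members, where the main fit tested 15160. With array brightness as a covariate the difference of 300 ng/kg from vehicle was 2.01 for TTBK1 and 1.74 for ZNF608 in place of 0.71 and 0.57, and with slide as a fixed block it turned to -0.30 and -0.50.

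Enzymes of heparan sulfate, amino sugar and glycan synthesis, and of sugar breakdown, made up 8 of the members. NDST4, which removes acetyl groups from heparan sulfate chains and adds sulfate, lay at -3.72, -4.21 and -4.27 in vehicle, -1.12, -2.14 and -2.10 at 30 ng/kg and -2.34, -0.76 and -3.60 at 300 ng/kg. The exposed arrays of NDST4 were all above vehicle, by 2.28 ± 0.70 at 30 ng/kg (4.86-fold) and 1.83 at 300 ng/kg (3.56-fold), and replicate 3 of 300 ng/kg came within a short distance of the highest vehicle array. At 300 ng/kg NDST4 was 0.93 with normexp. EXT2, a subunit of the polymerase that extends heparan sulfate, was 0.62 ± 0.21 and 0.73 above vehicle at 30 and 300 ng/kg with no overlap, and the latter was -0.01 with slide as a fixed block.

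GFPT1 and PGM3 both act in the hexosamine pathway, which makes the sugar nucleotide used to glycosylate proteins and to build hyaluronan and heparan sulfate. GFPT1 controls the first step, and it lay at -2.80, -2.66 and -2.72 in vehicle, -1.75, -2.23 and -2.35 at 30 ng/kg and -1.40, -2.35 and -1.40 at 300 ng/kg. PGM3 acts later, and it lay at -1.76, -1.31 and -1.97 in vehicle, -0.96, -1.29 and -1.16 at 30 ng/kg and -0.01, -1.02 and -0.01 at 300 ng/kg. Both had exposed arrays above every vehicle array, with replicate 2 the lowest at 300 ng/kg. The differences were 0.62 ± 0.29 and 1.01 for GFPT1 and 0.54 ± 0.31 and 1.33 for PGM3.

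GAL3ST4, which sulfates galactose on glycans, lay at -3.21, -3.05 and -2.69 in vehicle, -2.72, -2.09 and -2.28 at 30 ng/kg and -1.77, -1.71 and -1.0 at 300 ng/kg, in 3 steps with a slight overlap of the first and second. Its 300 minus 30 ng/kg difference was 0.87 ± 0.27, with a limma adjusted p of 0.175. ST8SIA1, which makes the ganglioside GD3, was higher at 30 than at 300 ng/kg: -5.06, -5.41 and -5.05 in vehicle, -3.47, -4.32 and -2.80 at 30 ng/kg and -4.21, -3.84 and -4.31 at 300 ng/kg. The difference of 300 minus 30 ng/kg, -0.59 ± 0.37 (limma adjusted p of 0.364), turned to 0.19 with brightness as a covariate, and the difference of 300 ng/kg from vehicle, 1.05, was -0.09 with normexp and -0.16 with slide as a fixed block. PYGL, the liver form of glycogen phosphorylase, lay at -3.38, -2.95 and -2.78 in vehicle, -2.41, -1.65 and -1.34 at 30 ng/kg and -1.88, -1.78 and -1.48 at 300 ng/kg, a difference of 1.24 ± 0.30 (2.36-fold) and 1.33 (2.51-fold). TALDO1, transaldolase of the pentose phosphate pathway, was 0.81 ± 0.23 and 0.89 above vehicle, and its exposed arrays spanned 0.56 to 1.05 while vehicle spanned -0.37 to 0.39.

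Chaperones and proteins of folding in the endoplasmic reticulum were represented by CRYAA, SDF2L1 and ERO1LB. CRYAA, alpha-A crystallin, is a small heat shock protein best known from the eye lens. It lay at -6.10, -5.94 and -4.73 in vehicle, -3.01, -3.04 and -4.61 at 30 ng/kg and -2.98, -2.14 and -1.60 at 300 ng/kg. Its differences were 2.03 ± 0.62 at 30 ng/kg and 3.35 at 300 ng/kg, and all 6 exposed arrays were above vehicle, although 30 ng/kg replicate 3 was close to vehicle replicate 3. With 1 of 3 vehicle arrays well above background and another at the floor, the vehicle mean rests mostly on dim signals and no fold is given. The 300 ng/kg difference of CRYAA was 1.34 with normexp, beside 1.43 at 30 ng/kg, and 4.06 with slide as a fixed block. At 300 ng/kg it was the highest of the 70 genes with the scanner's own subtraction and no block, while PNOC was highest with normexp (2.49) and with slide as a block (5.10).

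SDF2L1, a chaperone partner induced by stress of the endoplasmic reticulum, lay at -1.12, -1.03 and -1.93 in vehicle, -0.49, -0.17 and -1.64 at 30 ng/kg and 0.05, -0.04 and 0.38 at 300 ng/kg. Replicate 3 was the lowest array in vehicle and at 30 ng/kg, while the 300 ng/kg arrays stood above all others. Its 300 minus 30 ng/kg difference was 0.89 ± 0.43 with a limma adjusted p of 0.250. ERO1LB, which supplies oxidizing power to disulfide formation, was 0.87 ± 0.18 and 1.18 above vehicle with no overlap, yet -0.10 at 300 ng/kg with normexp. Among 16 genes with a symbol of the chaperone and stress response list, CRYAA and SDF2L1 were the 2 members, and the list's median difference was 0.09 at 30 ng/kg and 0.80 at 300 ng/kg.

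Kallikrein and innate immune genes included KLKB1, IFI16, COPl, RNF125, PRSS16 and the pseudogene LILRP2. KLKB1, plasma prekallikrein, is the precursor of the protease that frees bradykinin. It lay at -4.80, -6.10 and -5.72 in vehicle, -3.12, -2.87 and -3.86 at 30 ng/kg and -4.02, -4.79 and -5.16 at 300 ng/kg. The 30 ng/kg arrays stood above all others, and 1 of the 300 ng/kg arrays lay below vehicle replicate 1. A second KLKB1 probe gave 2.23 at 30 and 1.18 at 300 ng/kg against 2.26 ± 0.46 and 0.89 for the first. The 300 minus 30 ng/kg difference of -1.38 had a limma adjusted p of 0.169, and the 300 ng/kg difference from vehicle was -0.27 with normexp. C4BPB, which stands on the coagulation and complement list with KLKB1, was not well above background in vehicle or at 30 ng/kg.

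PRSS16, a serine protease of the thymus cortex, lay at -3.08, -3.38 and -3.02 in vehicle, -2.06, -2.11 and -1.99 at 30 ng/kg and -1.45, -2.73 and -1.79 at 300 ng/kg. The 30 ng/kg arrays were within 0.06 (SD) of each other, and the differences were 1.11 ± 0.31 and 1.17. IFI16, a sensor of DNA induced by interferon, lay at -0.70, -0.51 and -0.78 in vehicle, -0.19, 0.62 and 0.19 at 30 ng/kg and 0.00, -0.02 and 0.46 at 300 ng/kg, or 0.87 ± 0.23 and 0.81 above vehicle. RNF125, a ubiquitin ligase that restrains RNA sensing, was 0.85 ± 0.25 and 0.95 above vehicle, and COPl, a protein with a caspase recruitment domain alone, was 0.64 ± 0.30 and 1.23 above vehicle, both with no overlap. LILRP2 was not well above background on any vehicle array. It was at least 1.42-fold higher at 300 ng/kg, where the difference was -0.41 with normexp. At 30 ng/kg 1 of 3 arrays was well above background, so the ratio of 2.03 there is no lower bound. None of the 5 genes with a symbol on the antigen presentation and interferon list was a member, but 1 of them met the limits and was set aside. IFI16 is not on that list.

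Adhesion and junction genes were led by ALCAM and CDH2. ALCAM (CD166), an immunoglobulin-type adhesion molecule, lay at -3.26, -3.53 and -3.47 in vehicle, -1.80, -1.90 and -2.34 at 30 ng/kg and -2.08, -2.53 and -1.27 at 300 ng/kg. The gap between the lowest exposed and the highest vehicle array was wider than the spread within vehicle, and the differences were 1.40 ± 0.32 (2.64-fold) and 1.46 (2.75-fold). CDH2, N-cadherin of nerve and mesenchymal cells, lay at -2.01, -1.92 and -1.61 in vehicle, 0.00, -1.0 and -1.16 at 30 ng/kg and -0.90, -0.90 and -1.13 at 300 ng/kg. Replicate 1 of 30 ng/kg stood above the other exposed arrays of CDH2, which were close together, and the differences were 1.13 ± 0.30 and 0.88. ALCAM and CDH2 were the 2 members among 18 genes with a symbol of the adhesion list, whose median difference was 0.46 at 30 ng/kg and -0.04 at 300 ng/kg.

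TPBG, the surface glycoprotein 5T4 that modulates WNT signalling, had the smallest unadjusted p of the members for 300 against 30 ng/kg. It lay at -2.15, -2.64 and -2.48 in vehicle, -1.87, -1.41 and -2.26 at 30 ng/kg and -1.07, -1.08 and -0.77 at 300 ng/kg. All arrays of 300 ng/kg were above all others, the difference from 30 ng/kg was 0.87 ± 0.24, and the limma adjusted p was 0.166. MAL2, a membrane protein of apical transport in epithelial cells, lay at -3.94, -4.98 and -5.19 in vehicle, -3.48, -4.31 and -3.85 at 30 ng/kg and 0.03, -3.79 and -0.62 at 300 ng/kg. Replicates 1 and 3 of 300 ng/kg were far above replicate 2, which lay among the 30 ng/kg arrays. The 300 minus 30 ng/kg difference of 2.42 ± 0.99 had a limma adjusted p of 0.188 and was 3.59, past the adjusted threshold, without 300 ng/kg replicate 2. The array left out was the one far below the other arrays of that dose. In that fit 155 probes passed, 1 of them a member, where the main fit tested 15160.

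S100A4, a calcium-binding protein of fibroblasts and other motile cells, lay at 1.08, 1.34 and 1.06 in vehicle, 1.54, 2.38 and 1.84 at 30 ng/kg and 2.21, 2.34 and 3.05 at 300 ng/kg. Its exposed arrays were all above vehicle, by 0.76 ± 0.29 and 1.37, with some overlap between the exposed groups. The cytoskeletal linkers RDX (radixin, 1.00 ± 0.28 and 0.62 above vehicle), ADD3 (adducin, 0.66 ± 0.18 and 0.79) and FRMD3 (0.58 ± 0.20 and 0.69) had no overlap of exposed and vehicle arrays. The membrane-binding proteins ANXA3 (an annexin, 0.76 ± 0.25 and 0.70), CPNE2 (a copine, 0.78 ± 0.31 and 1.14) and STXBP5 (tomosyn, a brake on vesicle fusion, 0.95 ± 0.25 and 0.70) had none either. CAST, calpastatin, the inhibitor of calpain proteases, was measured by 3 probes, which gave 0.57, 0.39 and 0.57 above vehicle at 30 ng/kg and 0.80, 0.63 and 0.67 at 300 ng/kg. MMP23B, a membrane-bound metalloproteinase, was 0.69 ± 0.34 and 1.24 above vehicle, with 5 of 6 exposed arrays above the highest vehicle array, but 0.04 at 300 ng/kg with normexp and 0.01 with slide as a fixed block.

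**Figure D3:**
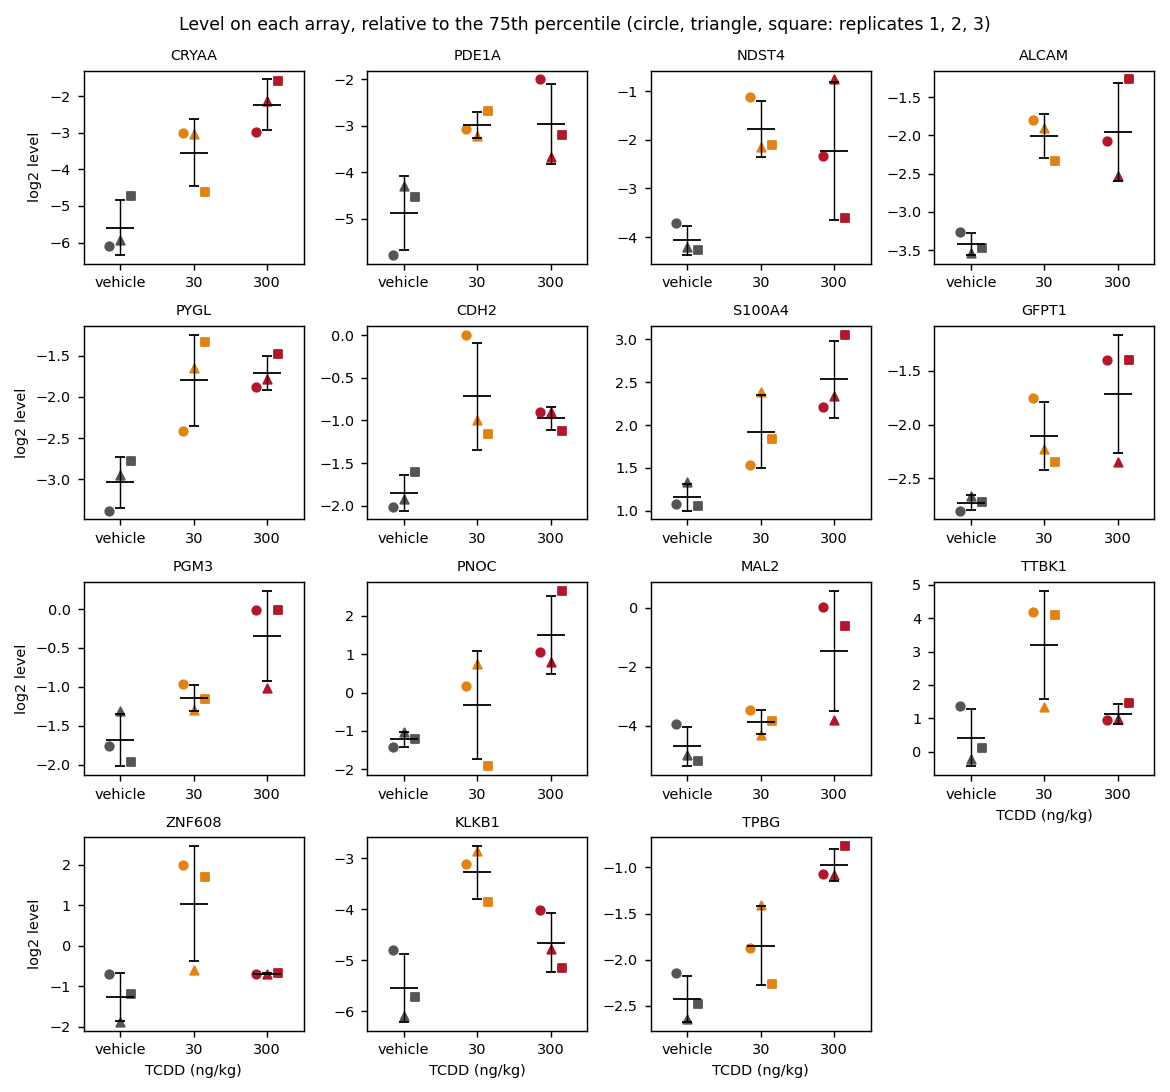
Level (log2 of signal over the 75th percentile signal) of 15 of the genes, picked after their values were seen to show each shape, in vehicle, 30 and 300 ng/kg. Each point is 1 offspring, and bars give the mean ± SD of 3. ALCAM and PYGL have exposed arrays wholly above vehicle at both doses, MAL2 has 300 ng/kg replicate 2 at -3.79 near the 30 ng/kg arrays, and TTBK1 and ZNF608 are high on replicates 1 and 3 of 30 ng/kg.

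Transporters and channels were few. OSTalpha (SLC51A), a subunit of a basolateral carrier of bile acids and steroids, lay at -1.49, -0.22 and -0.84 in vehicle, -0.43, 1.00 and -0.66 at 30 ng/kg and 1.96, 0.34 and 1.88 at 300 ng/kg. Replicate 2 was the highest array in vehicle and at 30 ng/kg and the lowest at 300 ng/kg, and 2 of the 30 ng/kg arrays lay below the highest vehicle array. CLIC2, a chloride intracellular channel protein, lay at -0.99, -0.91 and -1.63 in vehicle, -0.51, -0.25 and -0.70 at 30 ng/kg and -0.67, 0.13 and 0.34 at 300 ng/kg, or 0.69 ± 0.32 and 1.11 above vehicle. SLC9A9, a sodium and proton exchanger of endosomes, was 0.53 ± 0.22 and 1.02 above vehicle with no overlap. SLCO1A2, an uptake carrier of organic anions, was not well above background on any vehicle array and was at least 1.44-fold higher at 300 ng/kg. At 30 ng/kg 1 array was well above background, so the ratio of 1.43 there is no lower bound. The 300 ng/kg difference of SLCO1A2 turned to -0.49 with normexp and to -0.06 with slide as a fixed block. CLIC2, SLC9A9 and SLCO1A2 were the 3 members among 56 genes with a symbol of the channel and transporter list, whose median was 0.03 at 30 ng/kg and -0.45 at 300 ng/kg.

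Transcription factors and cofactors among the members were NR4A2, MYB, NFE2L3, NFYA, CITED2 and ZNF608. NR4A2, an orphan nuclear receptor and early response gene, lay at -3.60, -4.07 and -3.60 in vehicle, -3.13, -2.19 and -2.79 at 30 ng/kg and -2.40, -2.79 and -2.83 at 300 ng/kg. All exposed arrays were above vehicle, by 1.05 ± 0.27 and 1.08. MYB, a regulator of progenitor cells, was 0.87 ± 0.49 and 1.99 above vehicle, with 1 vehicle array well above background, and 0.24 at 300 ng/kg with normexp. NFE2L3, a relative of the oxidative stress factor NRF2, was 0.64 ± 0.13 and 1.17 above vehicle, and its 3 groups did not overlap each other. Its 300 minus 30 ng/kg difference of 0.53 had a limma adjusted p of 0.206 and turned to -0.54 with normexp. NFYA, a subunit of the factor that binds CCAAT boxes, was 0.63 ± 0.29 and 1.02 above vehicle, and CITED2, a transcription cofactor, was 0.96 ± 0.24 and 0.59. CITED2 was at 0.00 at 300 ng/kg with normexp and at -0.16 with slide as a fixed block.

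Genes of chromatin, cell division, RNA and translation were NAP1L2, HIST2H2BE, FSHPRH1, SMC5L1, CNOT6L, NSUN6 and RPS6. NAP1L2, a nucleosome assembly protein of neurons, lay at -4.70, -4.77 and -4.31 in vehicle, -3.58, -3.32 and -3.98 at 30 ng/kg and -3.69, -3.49 and -3.39 at 300 ng/kg, or 0.97 ± 0.20 and 1.07 above vehicle. NSUN6, an RNA methyltransferase, was 0.94 ± 0.38 and 1.23 above vehicle, with 30 ng/kg replicate 2 at -5.11 below vehicle replicate 2 at -5.04, and the 300 ng/kg difference was -0.09 with normexp. RPS6, a ribosomal protein, lay at 3.33, 3.47 and 3.18 in vehicle, 3.74, 3.88 and 3.85 at 30 ng/kg and 4.12, 3.75 and 4.14 at 300 ng/kg, a small difference (0.50 ± 0.13 and 0.68) with no overlap. The histone gene HIST2H2BE was 0.62 ± 0.24 and 0.85 above vehicle, and SMC5L1, of a complex for chromosome upkeep, was 0.70 ± 0.14 and 0.75, both with no overlap, although SMC5L1 was -0.27 at 300 ng/kg with normexp. CNOT6L, a deadenylase that shortens messenger RNA tails, was at least 1.30-fold higher at 300 ng/kg, and FSHPRH1, a centromere protein, at least 1.43-fold. Neither was well above background on any vehicle array, and each was so on 1 array of 30 ng/kg. Their ratios at 30 ng/kg, 1.73 for CNOT6L and 1.47 for FSHPRH1, are therefore no lower bounds. At 300 ng/kg with normexp and with slide as a fixed block the difference was -0.61 and -0.42 for CNOT6L and -0.41 and -0.19 for FSHPRH1. For CNOT6L the 300 minus 30 ng/kg difference was -0.41 ± 0.25 with a limma adjusted p of 0.400.

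The remaining members were ZDHHC13, DKFZP564O0823 (PARM1), ECRG4, TCTE1L, NSE2, RWDD2, TMEM4, SH3BP5, XKRX and APRG1. ZDHHC13, which attaches palmitate to proteins, lay at -4.59, -4.95 and -4.08 in vehicle, -3.69, -3.56 and -3.71 at 30 ng/kg and -3.37, -3.86 and -2.58 at 300 ng/kg, or 0.89 ± 0.35 and 1.27 above vehicle, with no overlap, and 1.03 and 0.27 with normexp. DKFZP564O0823, whose present name marks it as a mucin-like protein regulated by androgen in the prostate, was 0.62 ± 0.20 and 0.79 above vehicle with no overlap. TMEM4 (0.77 ± 0.33 and 1.25), TCTE1L (0.74 ± 0.19 and 1.07), ECRG4 (0.75 ± 0.29 and 0.98) and RWDD2 (0.52 ± 0.39 and 1.41) had no overlap either. SH3BP5 (0.63 ± 0.22 and 0.65) and NSE2 (0.57 ± 0.37 and 1.29) each had 1 exposed array below the highest vehicle array. XKRX and APRG1 were not well above background on any array of vehicle or 30 ng/kg, so no fold is given for 30 ng/kg. At 300 ng/kg APRG1 was at least 1.14-fold higher. The ratio of 1.16 for XKRX is no lower bound, since not all its 300 ng/kg arrays were well above background. The 300 ng/kg difference was -0.46 for XKRX and -0.49 for APRG1 with normexp, and -0.50 and -0.41 with slide as a fixed block. XKRX was well above background on 2 arrays of 300 ng/kg and was the 1 member left out of the fit's adjusted p-values.

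The pathway lists place few of the 70 genes, and the genes with a symbol on them all come from the authors' list, which was chosen on these arrays. Of 20 lists, 8 held at least 1 member. On the lists were 15 members among 215 genes with a symbol, beside 70 members among all 1076 named genes. By these counts a short list without a member says little about its pathway. The list of aryl hydrocarbon receptor components and targets had 5 genes with a symbol (RELB, ALDH1A3, SLC7A5, HES1 and STC2) and no member, and its median difference was -0.29 at 30 ng/kg and 0.94 at 300 ng/kg. RELB, which pairs with the receptor, was lower at both doses, by -1.02 and -0.97 (SE 0.23). No member came from the 7 collagens and matrix proteins, the 4 hyaluronan and proteoglycan genes, the 10 matrix processing genes, the 12 genes of TGF-beta signalling or the 9 of WNT, Hedgehog, Notch and FGF signalling. The lists of homeobox and developmental factors (10 genes), cytokeratins (4) and cytokines (1) had none either. Those of lipid metabolism (7), glutathione and xenobiotic enzymes (11) and interferon (5) had none because their genes that met the limits were set aside. These numbered 2, 1 and 1 in that order, and 1 gene of the steroid and nuclear receptor list was set aside likewise. On the G protein-coupled receptor list 3 of 20 genes were members, on the steroid and nuclear receptor list NR4A2 of 8, on the glycosyltransferase list ST8SIA1 of 7 and on the cell cycle list PLK2 of 3. In limma no gene of any list passed the adjusted threshold in any comparison of the groups, as for all probes. The authors' list holds 1109 probes with a symbol of 1502, and genes without one were not analysed here.

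The authors' deposited table lists all 70 genes as up at both doses, with 59 of them at a fold of at least 1.5 at both. The median fold in the authors' deposited table was 1.76 at 30 ng/kg and 2.14 at 300 ng/kg. Those folds come from the same arrays under another normalization and are no separate measurement.

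How firmly a gene met the limits differed within the list. The counts below reuse the arrays and contrasts that chose the genes, so the selection fixed them in part. They are a description, with no share over all probes beside them. With each array left out in turn, both differences stayed above 0 for all 70 genes, and 35 of the 70 kept both at 0.5 or more every time. On slide 2, where 1 vehicle array and 2 arrays of 30 ng/kg lay side by side, 70 genes were higher at 30 ng/kg and 52 by at least 0.5. With slide as a fixed block, 59 genes had both differences above 0 and 43 had both at 0.5 or more. Since slide 1 held vehicle alone, that 30 ng/kg difference is the slide 2 difference itself and no separate check. It rests on vehicle replicate 3 as the sole vehicle array. The 300 ng/kg difference adds the slide 3 difference, which rests on 30 ng/kg replicate 3. With normexp background correction the counts were 56 and 37, while the median of all probes moved by 0.29 at 30 ng/kg and -0.22 at 300 ng/kg. Relative to those medians 60 genes were above at both doses, and 27 by at least 0.5. The exceptions were mostly dim: of 14 genes below 0 at 300 ng/kg with normexp, 13 were among the 24 that were not well above background on all 9 arrays, and of 11 below 0 with slide as a fixed block, 7 were. Among the 46 genes well above background on all 9 arrays, 33 kept both differences at 0.5 or more with slide as a block and 32 with normexp. The count of genes with all 6 exposed arrays above vehicle was 24 instead of 52 with normexp.

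**Figure D4:**
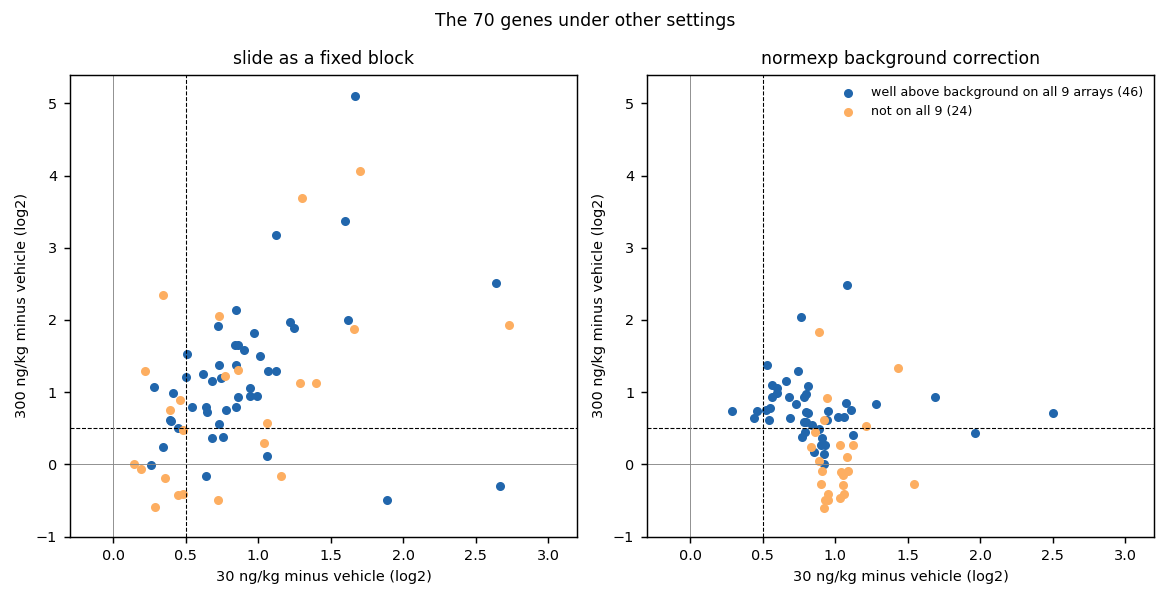
Difference from vehicle at 30 ng/kg (horizontal, log2) and 300 ng/kg (vertical, log2) for the 70 genes with slide as a fixed block (left) and with normexp background correction (right). Blue points are the 46 genes well above background on all 9 arrays, orange points the other 24, and dashed lines mark 0.5. Points below the grey zero line, 11 on the left and 14 on the right, are mostly orange.

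A core of 16 genes kept both differences at 0.5 or more in 6 other ways of processing the signals (normexp, quantile and median scaling, 2 other floors, and all spots kept) and with each array left out in turn, and 15 of them were CRYAA, PDE1A, NDST4, ALCAM, PYGL, PRSS16, CDH2, MAL2, TALDO1, IFI16, CPNE2, TMEM4, S100A4, ADD3 and DKFZP564O0823. They span adhesion, sugar metabolism, a chaperone and a calcium-binding protein, and they were picked out by their stability after the values were seen. With slide as a fixed block, a setting not among those 6, PYGL, TALDO1, ADD3 and CPNE2 had 1 difference or both under 0.5 or near it: 0.76 and 0.38, 0.39 and 0.62, 0.40 and 0.60, and 0.41 and 0.99. The macaque reference table holds 55 of the 70 symbols, and no pair of them was next to each other there.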

How the data were processed

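Total RNA (0.5 ug per sample, Cy3 label, per the labels' protocols) from 9 prostates was hybridised to 1-colour Agilent arrays. Groups were taken from the dose in the sample titles. Per the file headers, the authors read the scans with version 9.5.1.1 of Agilent Feature Extraction, which the submitters' processing notes give as 9.5. The deposited processed signal is an intensity, background-subtracted within each array and not normalized between arrays. Spot median and local background signals, deposited in the same files, are also intensity values. For 1502 probes the authors' deposited table holds a fold (a ratio with a direction) and group means on the log2 scale, by a normalization not given in the sources used here. The table's 9 flag columns, 1 per sample, stayed out of use.

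Each of 20217 probes had 2 spots; 290 spots with outlier flags were left out and the rest averaged. The mean was divided by the array's own 75th percentile, with a floor of 5 units of the dimmest array (-6.10 after taking logs), and put on the log2 scale. Tests covered 15160 probes, those that every array of 1 group or more showed well above background, and left out 5057. In R 4.3.3 with statmod 1.5.0 (data.table version 1.17.8), limma 3.58.1 was fitted to all 9 arrays with group as the term, with 6 residual and 2.99 prior degrees of freedom, 2-sided, and Benjamini-Hochberg adjustment at 0.05 over all tested probes. The fit was tested on simulated data. Figures were drawn with matplotlib 3.10.9 in Python 3.11.15. The brightest probe stood for a gene. Probe names come from the authors' table, all 70 as human transcripts; 53 symbols matched the macaque reference table as written, 2 by synonym and 15 not at all, and the latter keep their old names.

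Members, lists, tests and alternatives were chosen with earlier results of these data known. Members were named in full if tested and among the 15 with the largest lesser difference, among up to 6 of a list, or among the 5 higher and 5 lower with the smallest p between the doses; members whose probes differ in sign were to be added, and there were 0. Lists given as letter prefixes caught 5 genes of other function, which were removed by hand. Alternatives were other background corrections, scalings, floors, filters and limits, slide as a block, the replicate number as a block, a covariate for brightness, weights per array, a trended robust prior and each array left out. By name, 1 member is not reported here. Motif searches in promoters were not run, and no sequences were used here.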

Additional observations from a re-analysis of the deposited data

How the results depend on the processing

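The number of genes that met the limits depended on the limits and filter: 46 with probes well above background on all 9 arrays, 9 with both differences at least 1 and 136 with both at least 0.3. It was 69 over tested probes alone, an alternative added after seeing the data. Other processings gave 68 to 92 genes, but not always the same ones: normexp gave 70 with 37 of the members among them, and slide as a fixed block gave 83 with 43. With 1 array left out in turn the number of genes ran from 65 to 88, the genes higher at 300 than at 30 ng/kg from 47 to 52, and those with all 6 exposed arrays above vehicle from 52 to 58. With normexp the latter counts were 21 and 24.

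limma called 0 probes in each comparison of the groups at an adjusted p under 0.05, beside 766 (30 minus vehicle), 2357 (300 minus vehicle) and 3130 (300 minus 30 ng/kg) at an unadjusted p under 0.05. Calls for 300 minus 30 ng/kg were 1 with quantile normalization, 3 with median scaling, 2 with slide as a fixed block and 2951 with array weights, 8 of them members. Without 30 ng/kg replicate 2 there were 774 calls (2 members) and without 300 ng/kg replicate 2 there were 155 (1 member), and the range with 1 array left out was 0 to 774. Calls for 300 minus vehicle were 1 with the floor set before scaling and 198 with array weights, and ran from 0 to 271 with 1 array left out, the most without 300 ng/kg replicate 2. Calls for 30 minus vehicle were 6 with slide as a fixed block and ran from 0 to 1. An unadjusted p under 0.05 with a difference of at least 1 gave 259 (30 minus vehicle), 1195 (300 minus vehicle) and 1629 (300 minus 30 ng/kg). The causes of these changes were not tested.

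Of the genes whose dose difference is printed with its p, TAFA2 (-0.41), GPR74 (-0.31) and NFE2L3 (-0.54) turned direction with normexp and ST8SIA1 (0.19) with brightness as a covariate. Of the 31 genes named by the naming rule, the sign of 300 minus 30 ng/kg turned for 14 with normexp, 9 with brightness as a covariate, 5 with slide as a fixed block, 1 with quantile normalization and up to 6 with 1 array left out. With array weights 2951 of the 15160 tested probes passed the adjusted threshold for 300 minus 30 ng/kg. Of the 69 tested members 8 did, a lower share than over all probes. Among the genes whose dose difference is printed, 5 passed there: TPBG (0.94), GAL3ST4 (1.04), MAL2 (2.72), TTBK1 (-2.74) and ZNF608 (-2.34). Same-numbered arrays of different groups had deviations that correlated from -0.26 to 0.54, and 4 of 9 arrays correlated best with their own number, so the numbers were not taken to pair the offspring. With the replicate block there was 1 call for 300 minus 30 ng/kg and 70 genes met the limits, all of them members. The search for promoter motifs was not run. Dim signal limits what can be read: 24 of the 70 genes were not well above background on every array.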
